A study of Mus musculus with 46 samples.

Results

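The transcripts described here are those of 7 genes that handle ammonia in the liver, Nags, Cps1, Otc, Ass1, Asl, Arg1 and Gls2. They were taken by gene symbol from the 55487 genes that each deposited table lists, and each symbol matched 1 gene. RNA had been sequenced from the liver and pancreatic islets of mice, with and without the loss of factors that mitochondria need. Its title puts the question of how signals from mitochondria act on the identity and maturity of metabolic tissues. Of the 46 libraries, 13 came from liver: 6 labelled control, 4 labelled Mfn DKO and 3 labelled Tfam KO. The descriptions of these livers carry the letters AAV, a viral vector, and livers were frozen at once before total RNA was taken. Mfn1 and Mfn2 encode the mitofusins, which fuse mitochondria, and Tfam encodes a protein that packages mitochondrial DNA and acts in its transcription. The other 33 libraries were islets and serve only to compare levels, pooled over genotype, sex and diet. The Tfam islets were 5 F and 3 M control and 4 F and 2 M KO libraries, F and M being the labels' letters for sex. The Clec16a islets were 6 HFD and 4 RFD control and 5 HFD and 4 RFD KO libraries, diets whose names the labels do not write out. The sources used here do not give the promoter, serotype or dose of the vector, what the control livers received, or the sex and age of the mice.

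The urea cycle turns ammonia, which is toxic to the brain, into urea in the hepatocytes around the portal vein. Its first steps run inside mitochondria: N-acetylglutamate, made by NAGS, switches on CPS1, which joins ammonia and bicarbonate into carbamoyl phosphate, and OTC moves that group onto ornithine to form citrulline. Citrulline leaves for the cytosol, where ASS1, ASL and ARG1 build argininosuccinate, split it into arginine and fumarate, and cut arginine into urea and ornithine. GLS2, the glutaminase of adult liver, is not an enzyme of the cycle but releases ammonia from glutamine for it.

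Values are CPM, the counts of a gene relative to the library total, here on library sizes scaled by the trimmed mean of M-values (TMM). A gene was called changed at an adjusted p of 0.05 or less, from the quasi-likelihood test of edgeR with Benjamini-Hochberg adjustment over 17024 tested genes, and all 7 genes passed its filter on low counts. Total counts ran from 41961114 to 56894510 per liver. The labels number the livers as biological replicates without naming the animals, so p-values measure the spread between these samples. Tfam was 13.1 to 15.9 CPM in Tfam KO livers and 54.2 to 66.2 CPM in controls. Mfn1 was 15.7 to 25.4 CPM in Mfn DKO livers and 67.8 to 88.3 CPM in controls, and Mfn2 32.3 to 45.1 CPM against 113.4 to 190.9 CPM. The libraries were liver by their markers: the 6 islet hormone genes examined summed to at most 0.0456 CPM, and 10 hepatocyte markers to between 113900 and 167200 CPM in controls. Tfam KO replicate 2 stood apart from the rest, with hepatocyte markers at 35290 CPM, a root-mean-square distance from the control mean of 1.46 on the log2 scale against 0.35 to 0.41 in controls, and Lyve1 at 87.4 CPM. Results are therefore also given without it. Xist was at least 380.3 CPM in 3 control, 2 Mfn DKO and 2 Tfam KO livers, and Ddx3y, a Y-linked gene, was at least 88.3 CPM in the other 6.

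Nags, at the head of the pathway, was the least abundant of the 7 transcripts. The gene lies on chromosome 11, 102145513 to 102149477, plus strand (GRCm38, GENCODE M21, as for all positions below), and overlaps the antisense gene Gm11586, which had at most 16 counts in a liver beside at least 1179 for Nags. In controls it lay between 58.6 and 71.4 CPM with a median of 62.1. In Mfn DKO livers it was 60.5, 58.0, 59.2 and 69.4 CPM, and in Tfam KO livers 33.3, 15.3 and 49.1 CPM. Mfn DKO replicates 1, 3 and 4 fell within the control range and replicate 2 just below it, whereas all 3 Tfam KO values lay below every other liver. Nags fell in Tfam KO livers to 51.6% of control, a log2 fold change of -0.95 (SE 0.25, adjusted p = 0.0151 by edgeR). Its log2 fold change in Mfn DKO livers was -0.03 (SE 0.22, adjusted p = 0.948 by edgeR). On the deposited TPM, which correct for transcript length and library total and carry no TMM scaling, Nags was 53.9 to 64.1 in Mfn DKO livers, above the 44.7 to 51.3 of the controls.

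Cps1, the rate-setting enzyme of the cycle, lies on chromosome 1, 67123026 to 67231259, plus strand. It was 2560 to 4798 CPM in controls with a median of 3933. Mfn DKO livers had 5378, 4748, 4078 and 3250 CPM, and Tfam KO livers 2866, 1452 and 3689 CPM. Tfam KO replicates 1 and 3 lay within the control range and replicate 2 below it. Neither change passed the test: the log2 fold change was 0.18 in Mfn DKO (SE 0.27, adjusted p = 0.687 by edgeR) and -0.53 in Tfam KO (SE 0.30, adjusted p = 0.207). On the deposited TPM, Cps1 was 1473 ± 296 (SD, n = 6) in controls and 1496 ± 364 (SD, n = 3) in Tfam KO livers.

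Otc, which makes citrulline from the product of CPS1, had the lowest fitted value relative to control of the 7 in Tfam KO livers. The gene lies on chromosome X, 10252305 to 10321024, plus strand. Controls ranged from 574.8 to 793.7 CPM with a median of 701.9. Tfam KO livers had 186.2, 23.3 and 383.1 CPM, and Mfn DKO livers 350.2, 390.7, 424.8 and 385.5 CPM. Every liver of both knockout groups lay below every control, on this scale and on TPM. In Tfam KO livers Otc fell to 28.7% of control, a log2 fold change of -1.80 (SE 0.56, adjusted p = 0.0291 by edgeR). The Mfn DKO livers stood at 56.3% of control, a log2 fold change of -0.83 (SE 0.48, adjusted p = 0.280), which did not pass.

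The 250 bases before the RefSeq start (GRCm38.p6) are shown for Otc and Nags, both called in Tfam KO livers, as the letters next to transcripts that fell by different amounts. Capitals mark AAAGTTCA in Otc, a site of the type bound by HNF4A, and the GC box GGGCGG or its reverse complement in Nags.
Otc, chrX:10252055-10252304, plus strand: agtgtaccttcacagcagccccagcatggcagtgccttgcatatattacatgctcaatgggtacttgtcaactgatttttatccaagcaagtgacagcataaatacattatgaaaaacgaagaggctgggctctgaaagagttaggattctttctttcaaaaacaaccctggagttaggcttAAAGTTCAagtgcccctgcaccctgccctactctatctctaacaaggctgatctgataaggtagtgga
Nags, chr11:102145263-102145512, plus strand: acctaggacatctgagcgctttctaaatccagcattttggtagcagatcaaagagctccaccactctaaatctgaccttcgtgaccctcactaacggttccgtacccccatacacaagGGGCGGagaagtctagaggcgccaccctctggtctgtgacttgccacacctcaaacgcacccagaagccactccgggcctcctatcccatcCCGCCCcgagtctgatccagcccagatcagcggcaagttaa
Both strands were searched for 6 motifs, and matches are descriptions of letters. AAAGTCCA or AAAGTTCA occurred in 2.09% of 27025 promoter windows of the same length, and GGGCGG in 32.9%. TTGCNNAA (C/EBP), TGATGNAA, TATAAA and TGACG had no match in these windows of Otc and Nags. The GC content was 43.6% for Otc and 55.6% for Nags, beside a median of 52.0%. Transcripts of Hnf4a, given because of the motif, did not pass in Tfam KO (log2 fold change -0.55, adjusted p = 0.118 by edgeR) or Mfn DKO livers (-0.14, adjusted p = 0.714).

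Ass1, which links citrulline to aspartate, lies on chromosome 2, 31470207 to 31520672, plus strand. Controls ranged from 1861 to 3343 CPM with a median of 2287, and Mfn DKO livers had 4012, 4225, 3254 and 2406 CPM. Tfam KO livers had 1871, 1191 and 1989 CPM. Mfn DKO replicates 1 and 2 exceeded every control, and both groups overlapped with the control range. The log2 fold changes, 0.50 in Mfn DKO (SE 0.23, adjusted p = 0.182 by edgeR) and -0.55 in Tfam KO (SE 0.26, adjusted p = 0.131), did not pass. Gm5424, a near-identical copy of Ass1, held 0.158% to 0.218% of the Ass1 count, and the Ass1 values are uncertain by the reads that counting could split between them.

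Asl, which releases arginine and fumarate, lies on chromosome 5, 130011258 to 130029247, minus strand. It was 632.7 to 1025 CPM in controls with a median of 859.5. Mfn DKO livers had 449.6, 551.3, 384.4 and 447.5 CPM, and Tfam KO livers 381.1, 179.2 and 599.6 CPM. Asl was thus below every control in all 7 knockout livers on this scale. On TPM the groups overlapped, with a lowest control of 282.3 and highest livers of 301.4 in Mfn DKO and 333.9 in Tfam KO. It fell in Tfam KO livers to 46.8% of control, with a log2 fold change of -1.10 (SE 0.31, adjusted p = 0.0202 by edgeR). The Mfn DKO livers had a log2 fold change of -0.85 (SE 0.28, adjusted p = 0.0692), just outside the threshold.

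Arg1, the arginase that frees urea, lies on chromosome 10, 24915221 to 24927484, minus strand. It was 1247 to 1700 CPM in controls with a median of 1539. Mfn DKO livers had 1351, 1492, 1079 and 1110 CPM, and Tfam KO livers 622.3, 301.2 and 1130 CPM. Mfn DKO replicates 3 and 4 and all 3 Tfam KO livers lay under the control range. Arg1 fell in Tfam KO livers to 45.0% of control, a log2 fold change of -1.15 (SE 0.32, adjusted p = 0.0178 by edgeR). Its log2 fold change in Mfn DKO livers was -0.28 (SE 0.28, adjusted p = 0.543).

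Gls2 lies on chromosome 10, 128194457 to 128210004, plus strand. It was 371.9 to 598.0 CPM in controls with a median of 454.9. Mfn DKO livers had 671.5, 695.3, 568.3 and 461.4 CPM, and Tfam KO livers 260.5, 47.6 and 341.9 CPM. All 3 Tfam KO livers lay below the controls, yet the change did not pass, with a log2 fold change of -1.11 (SE 0.43, adjusted p = 0.0706 by edgeR). For Mfn DKO livers it was 0.36 (SE 0.37, adjusted p = 0.558). Gls2 shares 97 exonic bases with Spryd4 on the opposite strand. Spryd4 had 1107 to 2171 counts per liver and Gls2 had 3664 in its lowest, and whether strand was used in counting is not given in the sources used here, so the Gls2 values are uncertain to that extent.

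**Figure D1:**
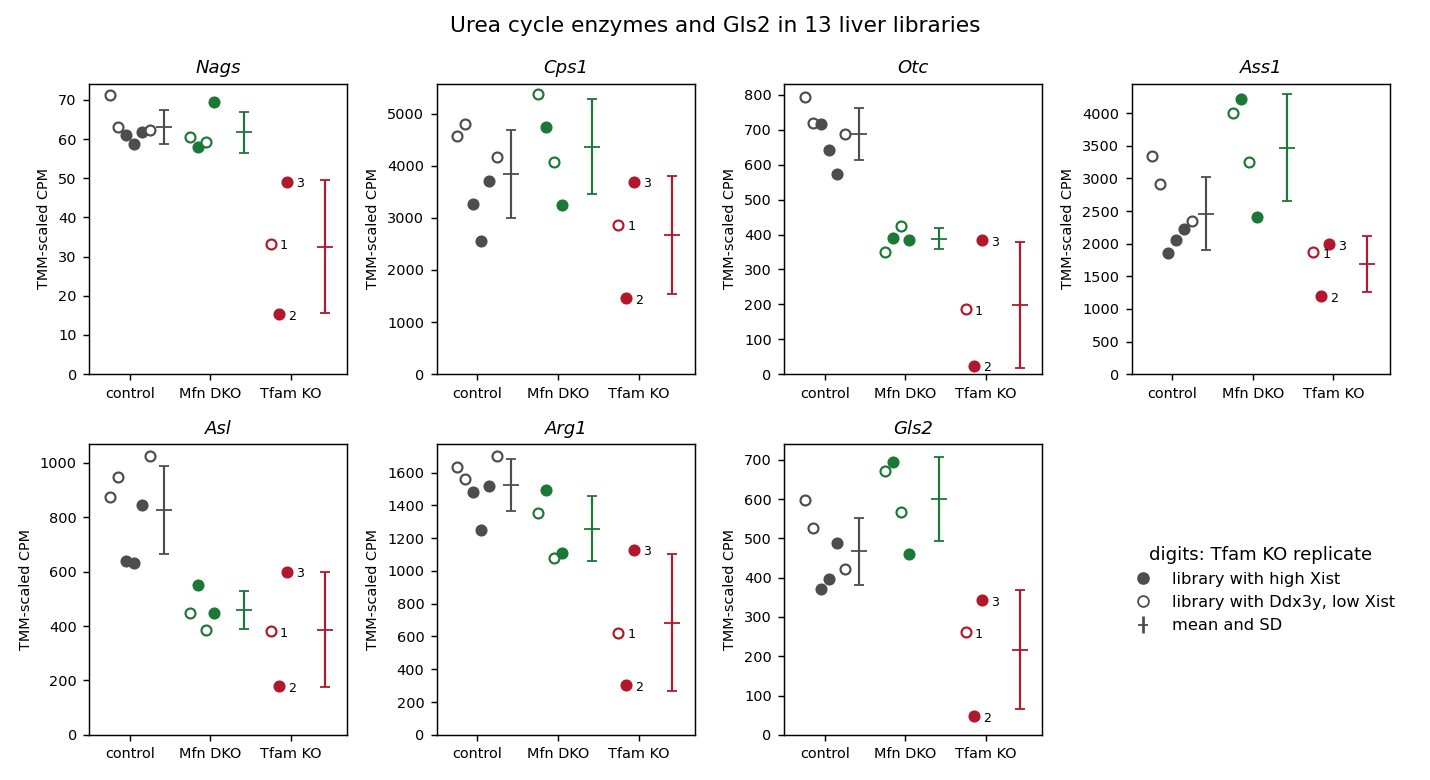
TMM-scaled CPM (linear axes from 0) of the 7 genes in each of the 13 livers, with the mean and SD of each group beside the points, filled points for livers with high Xist and digits for the Tfam KO replicates. Otc and Asl lie below every control in both knockout groups, and in each panel Tfam KO replicate 2 is the lowest liver and replicate 3 the highest of the Tfam KO group.

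Considered together, Tfam KO livers had 4 of the 7 genes called lower and none higher. Across all genes tested, 29.3% were called in this comparison and 11.3% were called lower. The median log2 fold change of the 7 genes was -1.10, beside 0.03 over all genes. In 5 of the 7 (Nags, Otc, Asl, Arg1 and Gls2) every Tfam KO liver lay below every control, a pattern held by 10.2% of all genes on TMM-scaled CPM. On TPM this held for Otc alone of the 5, with a highest Tfam KO liver of 243.0 and a lowest control of 308.0. The highest Tfam KO liver exceeded the lowest control for Nags (46.5 against 44.7 TPM), Asl (333.9 against 282.3), Arg1 (1365 against 1235) and Gls2 (264.8 against 229.1). Since the tissue was bulk liver, fewer hepatocytes and less RNA per hepatocyte cannot be told apart. Hepatocyte markers summed to 35290 to 135100 CPM in Tfam KO livers, and 3 of the 10 were called lower and none higher, Ttr with the smallest adjusted p (log2 fold change -1.35, adjusted p = 0.00656 by edgeR). Without Tfam KO replicate 2, 3 were called lower and 1 higher there (Tat, 0.86, adjusted p = 0.0258). The median log2 fold change of the 10 markers then went from -0.79 to -0.43. The sums in Mfn DKO livers were 110100 to 140500 CPM, with 1 called higher (Tat) and none lower, or 3 and 3 without Tfam KO replicate 2. Their part in the values of the cycle genes was not tested.

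Without Tfam KO replicate 2, the same 4 genes were called lower in Tfam KO livers, where 14.5% of 17317 genes were called and 5.95% were called lower. The log2 fold changes shrank to -0.61 for Nags, -1.27 for Otc, -0.75 for Asl and -0.80 for Arg1, with adjusted p from 0.00559 to 0.0473 by edgeR. Without Tfam KO replicate 1, Nags alone of the 7 stayed called (adjusted p = 0.0473 by edgeR). Of 17488 genes tested in that fit, 2338 were called higher and 1001 lower. Otc, Asl and Arg1 then had adjusted p of 0.0880, 0.0644 and 0.0669 with log2 fold changes of -1.76, -1.09 and -1.09. Within the Tfam KO group each of the 7 genes was lowest in replicate 2 and highest in replicate 3. Alb followed that order, at 43470, 17650 and 71780 CPM in replicates 1 to 3, and Asns, an asparagine synthetase induced by amino acid and mitochondrial stress, the opposite one, at 50.7, 126.0 and 3.13 CPM. Tfam itself had the order of the 7 genes in a narrow range, at 15.0, 13.1 and 15.9 CPM in replicates 1 to 3.

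In Mfn DKO livers none of the 7 genes was called, while 9.87% of all genes were. At an unadjusted p under 0.05 the count was 1 of 7 (Asl), beside 4704 of the 17024 genes (27.6%). The Wald test of DESeq2 also called 1 (Asl), beside 1376 genes higher and 1494 lower of the 17024. The median log2 fold change of the 7 genes was -0.03, beside 0.02 over all genes. Otc and Asl lay below every control in all 4 Mfn DKO livers, a pattern held by 10.3% of all genes, and none of the 7 lay above every control, which 8.95% of all genes did. The fit shares 1 estimate of spread among the 3 groups. The biological coefficient of variation dropped from 34.8% to 29.4% without Tfam KO replicate 2. Otc and Asl were then called lower in Mfn DKO livers, with log2 fold changes of -0.83 (adjusted p = 0.00698 by edgeR) and -0.85 (adjusted p = 0.00757), where 19.5% of genes were called and 9.95% were called lower. Under the same fit Ass1 had a log2 fold change of 0.50 with an adjusted p of 0.0809.

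Neighbouring steps were then compared as ratios of CPM within 1 liver, which do not depend on the scaling between libraries. These ratios were chosen after the values had been seen and were not tested. Ass1 over Asl, consecutive enzymes of the cytosol, was 2.29 to 3.83 in controls, 5.38 to 8.92 in Mfn DKO livers and 3.32 to 6.65 in Tfam KO livers. Cps1 over Otc, consecutive enzymes of the mitochondrion, was 3.98 to 6.68 in controls, 8.43 to 15.4 in Mfn DKO livers and 9.63 to 62.4 in Tfam KO livers. Neither ratio overlapped with the controls in Mfn DKO livers, where the denominators, Asl and Otc, already lay below every control. The share of all gene pairs that separate in this way was not counted.

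Tfam KO and Mfn DKO livers were also compared directly, since both knockouts were set against the same 6 controls. None of the 7 genes was called, and 0.294% of all genes were. All 7 had log2 fold changes below 0 in Tfam KO relative to Mfn DKO livers, from -0.25 for Asl (adjusted p = 0.681 by edgeR) to -1.47 for Gls2 (adjusted p = 0.124), and 5 of 7 had an unadjusted p under 0.05, as did 3480 of the 17024 genes (20.4%). The Wald test of DESeq2 called 3 (Nags, Ass1 and Gls2), beside 791 genes higher and 296 lower of the 17024. The 3 Tfam KO livers lay below all 4 Mfn DKO livers for Nags, Ass1 and Gls2, a pattern held by 5.1% of all genes. Without Tfam KO replicate 2 the count stayed at 0, beside 0.283% of all genes, and Asl turned to 0.10. Without Tfam KO replicate 3 all of the 7 except Asl were called, from Nags (log2 fold change -1.35, adjusted p = 0.00277 by edgeR) to Cps1 (-1.02, adjusted p = 0.0485). In that fit 4204 of 17552 genes were called in all. Whether the knockouts were called different thus depended on which Tfam KO livers entered the fit.

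**Figure D2:**
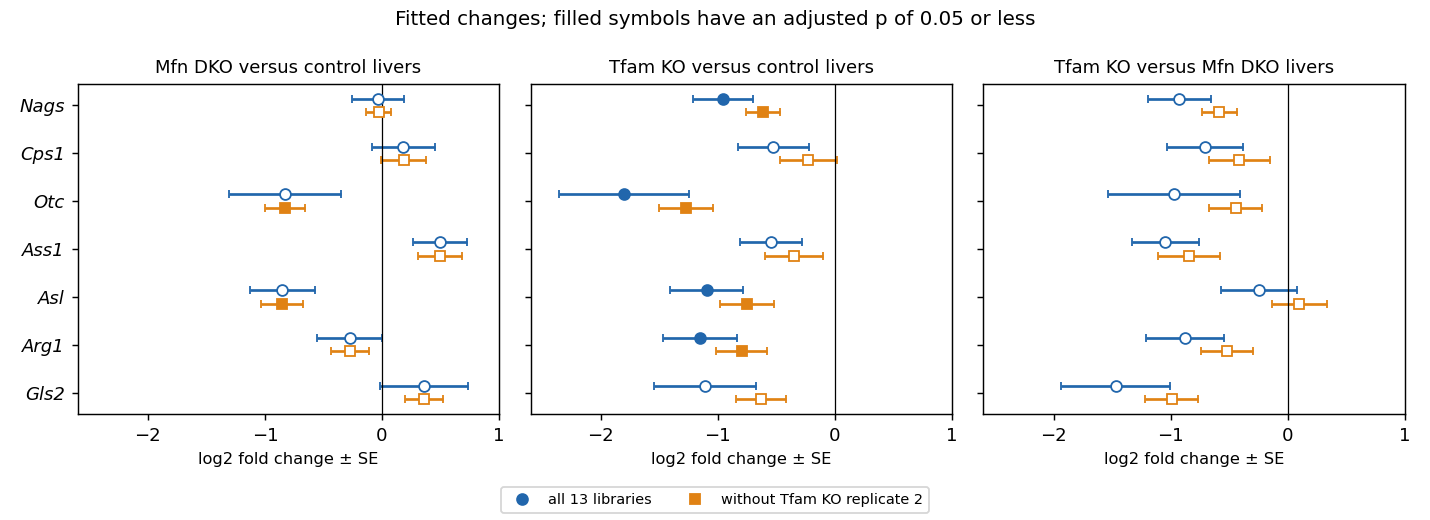
Log2 fold change and SE of the 7 genes in the 3 comparisons, with all 13 livers (blue circles) and without Tfam KO replicate 2 (orange squares); filled symbols passed an adjusted p of 0.05. Nags, Otc, Asl and Arg1 pass in Tfam KO under both fits, and Otc and Asl pass in Mfn DKO only without that library.

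Xist marked a further division of the livers. In controls, the 3 livers with low Xist had more Nags, Cps1, Ass1, Asl and Arg1 than each of the 3 with high Xist, whereas the ranges of Otc and Gls2 overlapped. Ass1, for example, was 2350 to 3343 CPM in controls with low Xist and 1861 to 2224 CPM in controls with high Xist. The share of all genes that separate in this way was not counted, so the separation is not read as a trait of the cycle genes. Within the livers with high Xist, the mean log2 difference between Mfn DKO and control was -0.73 for Otc and -0.49 for Asl. Within the others it was -0.92 and -1.19. The groups did not overlap in either division, which is fixed by the lack of overlap over all livers. In Tfam KO livers Nags, Otc, Asl, Arg1 and Gls2 were likewise below the controls in both divisions. That outcome is fixed too, since every Tfam KO liver lay below every control for these genes. Only 1 Tfam KO liver had low Xist. No test was made within these divisions, of 2 against 3 livers or 1 against 3.

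Levels of the 7 genes were compared with each other on TPM, which corrects for transcript length. In control livers the order was Ass1 (2169 ± 444, SD, n = 6), Cps1 (1473 ± 296), Arg1 (1458 ± 119), Asl (364.7 ± 64.9), Otc (346.3 ± 26.8), Gls2 (287.0 ± 50.1) and Nags (47.5 ± 2.53). Ranges of neighbours in this order overlapped, except between Arg1 and Asl, where the mean dropped 3.998-fold, and between Gls2 and Nags, where it dropped 6.05-fold. Among Mfn DKO livers Gls2 (454.2 ± 80.4, SD, n = 4) moved above Asl (249.7 ± 37.0) and Otc (241.0 ± 22.3), with no overlap between Gls2 and Asl. In Tfam KO livers Otc (134.4 ± 110.1, SD, n = 3) stood below Gls2 (185.4 ± 112.3), though these ranges overlapped.

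The islets of the same series gave the contrast of a tissue without a complete cycle. No test was made, since tissue, culture and experiment cannot be told apart. Cps1 had 0 counts in 11 of 14 Tfam islet libraries and in 13 of 19 Clec16a islet libraries, and Otc in 11 and 12, where a count of 0 allows up to 3 counts. Their highest TPM in islets were 2.69 and 0.405. The cytosolic enzymes were present: Arg1 had a median of 50.04 TPM in Tfam islets and 47.3 in Clec16a islets, Asl 8.71 and 7.90, and Ass1 11.6 and 4.81. Gls2 was at most 5.59 TPM in islets.

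**Figure D3:**
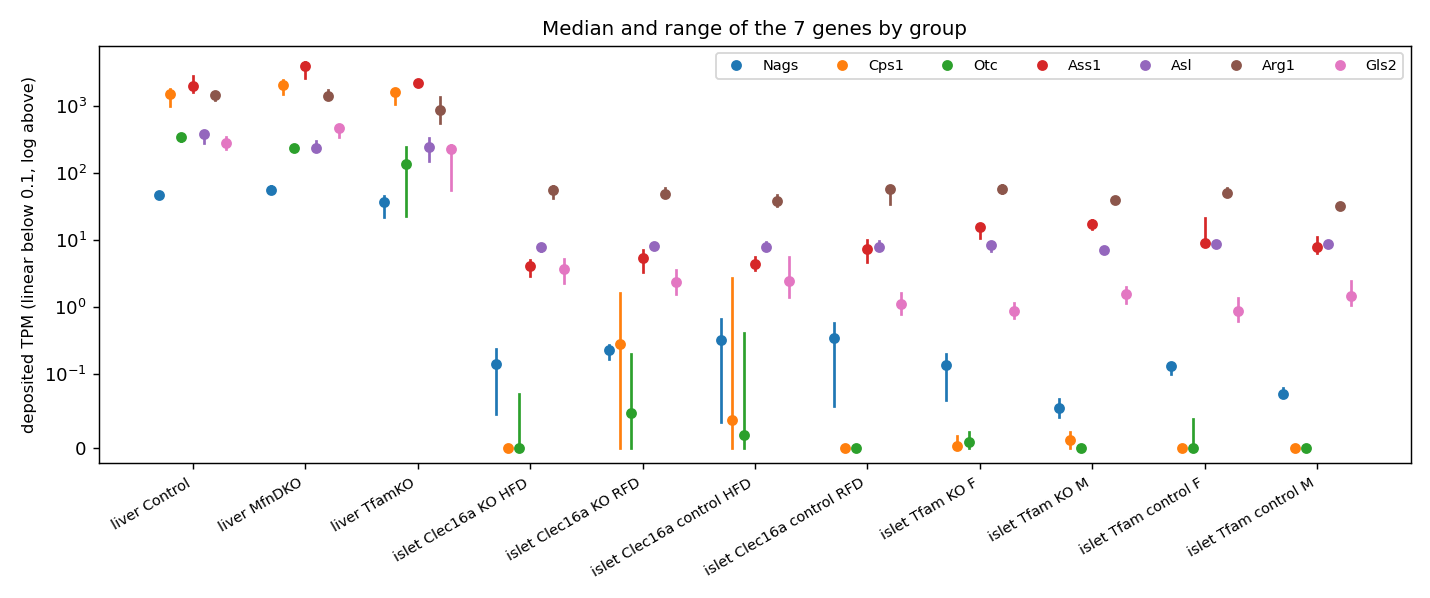
Median (point) and range (line) of deposited TPM of the 7 genes in the 3 liver groups and 8 islet groups, on an axis that is linear below 0.1 TPM and logarithmic above. Cps1 and Otc sit at or near 0 in islets and at 22.8 TPM or more in every liver, while Arg1, Ass1 and Asl are present in both tissues.

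The genes that feed the cycle or draw from it were taken as a list of 25 ammonia, glutamine and ornithine enzymes. In Tfam KO livers 7 of them were called higher and 7 lower, with a median log2 fold change of -0.20. Mfn DKO livers had 7 called higher and none lower, with a median of 0.09. Counts without Tfam KO replicate 2 were 7 higher and 3 lower in Tfam KO, and 8 higher and 8 lower in Mfn DKO livers. Across all genes, 29.3% were called in Tfam KO and 9.87% in Mfn DKO livers, with medians of 0.03 and 0.02. The shares called were 14.5% and 19.5% without that replicate. They are the background for the counts of every list below.

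Glul, the glutamine synthetase that captures ammonia escaping the cycle near the central vein, was 1327 to 1905 CPM in controls with a median of 1450. It was 249.1, 330.0 and 1071 CPM in Tfam KO livers and 527.9, 616.7, 724.4 and 1073 CPM in Mfn DKO livers, below every control in both. On TPM the Mfn DKO livers stayed below (at most 742.6, against 750.1 or more in controls) and the highest Tfam KO liver, at 762.0, did not. Glul fell in Tfam KO livers (log2 fold change -1.47, adjusted p = 0.0186 by edgeR) and had a log2 fold change of -1.05 in Mfn DKO livers (adjusted p = 0.0809). With Tfam KO replicate 2 left out, the sides of the threshold were exchanged, at adjusted p of 0.0790 and 0.0401.

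Oat, the ornithine aminotransferase that removes ornithine from the cycle, separated the knockouts by its values. It was 637.1 to 807.3 CPM in controls, 134.9, 123.9 and 436.1 CPM in Tfam KO livers and 675.8 to 870.8 CPM in Mfn DKO livers. Oat fell in Tfam KO livers (log2 fold change -1.59, adjusted p = 0.00604 by edgeR), and its log2 fold change in Mfn DKO livers was 0.09 (adjusted p = 0.869). The direct difference between the knockouts, -1.68, had an adjusted p of 0.0784. Odc1, the ornithine decarboxylase that starts polyamine synthesis, rose in Tfam KO livers, from 90.2 to 135.7 CPM in controls to 274.3, 360.3 and 207.6 CPM (log2 fold change 1.36, adjusted p = 0.000597). It was the one gene of the list that passed between the knockouts, at 1.18 (adjusted p = 0.0198).

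Arg2, the mitochondrial arginase, was near the floor, at no more than 0.238 CPM in controls. Its log2 fold change was 1.10 in Tfam KO (adjusted p = 0.298 by edgeR) and 1.18 in Mfn DKO livers (adjusted p = 0.312). Without Tfam KO replicate 2 the Tfam KO value was -0.11 (adjusted p = 0.952). With all livers, Glud1, the glutamate dehydrogenase that releases ammonia in mitochondria, had -0.16 in Tfam KO (adjusted p = 0.512) and -0.04 in Mfn DKO (adjusted p = 0.892).

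The same list held the synthetic enzymes of asparagine and proline. Asns rose in both knockouts, with log2 fold changes of 5.54 in Mfn DKO (adjusted p = 0.00166 by edgeR) and 5.93 in Tfam KO livers (adjusted p = 0.000842). Aldh18a1 and Pycr1, which make proline from glutamate, rose by 2.23 and 1.54 in Mfn DKO and by 4.54 and 3.10 in Tfam KO livers on the log2 scale. Without Tfam KO replicate 2 the Tfam KO values were 4.79 for Asns (adjusted p = 0.00338 by edgeR), 3.23 for Aldh18a1 (adjusted p = 0.00232) and 2.75 for Pycr1 (adjusted p = 0.00228). Aldh18a1 was 1.19 to 1.99 CPM in controls and 27.1, 82.5 and 2.95 CPM in Tfam KO replicates 1 to 3, so that replicate 3 stood nearest to the controls.

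Of 13 tested carriers of cycle substrates, 1 was called higher and 4 were called lower in Tfam KO livers, and 1 was called higher and none lower in Mfn DKO livers. Leaving out Tfam KO replicate 2 gave 0 higher and 1 lower (Aqp9) in Tfam KO livers. In Mfn DKO livers it gave 3 higher and 2 lower. Of all genes, 11.3% were called lower in Tfam KO livers, or 5.95% without that replicate. The fallen carriers in Tfam KO included Aqp9, a channel for urea and glycerol (log2 fold change -1.31, adjusted p = 0.0182 by edgeR), and Slc38a3, a glutamine transporter (-1.03, adjusted p = 0.0275). The others were the mitochondrial carriers Slc25a29 for basic amino acids (-1.06, adjusted p = 0.0323) and Slc25a2 for ornithine (-2.30, adjusted p = 0.0440), both of low level. Slc25a29 was 1.875 to 5.28 CPM in controls and 1.22 to 2.82 CPM in Tfam KO livers. Slc25a2 was near the floor, at 0.211 to 0.7 CPM in controls and 0 to 0.134 CPM in Tfam KO livers. The carrier called higher there, Slc25a12 (0.33, adjusted p = 0.0452), was named after its value was seen. Slc38a2, another amino acid transporter, rose in Mfn DKO livers (0.62, adjusted p = 0.0296). The main ornithine and citrulline exchanger of liver mitochondria, Slc25a15, did not pass in either, at -0.43 in Tfam KO (adjusted p = 0.0873) and 0.17 in Mfn DKO (adjusted p = 0.507). Slc25a13, the aspartate and glutamate carrier citrin, had -0.54 (adjusted p = 0.0625) and -0.25 (adjusted p = 0.403).

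A further list held 10 regulators named in textbooks and reviews for hepatic amino acid catabolism, and whether they act on the cycle genes was not tested. Of these, 5 were called lower and 1 higher in Tfam KO livers, and 2 were called lower and 1 higher in Mfn DKO livers. The counts were 4 lower and 1 higher in each without Tfam KO replicate 2. Of all genes, 11.3% were called lower in Tfam KO livers. In Mfn DKO livers 9.87% of 17024 genes were called in either direction, 891 higher and 790 lower. Creb3l3, a liver transcription factor released from the endoplasmic reticulum, had values close together within each group: 337.2 to 419.0 CPM in controls, 215.4 to 241.0 CPM in Mfn DKO livers and 180.1 to 203.3 CPM in Tfam KO livers. It fell in both, by 0.74 (adjusted p = 0.00149 by edgeR) and 1.01 (adjusted p = 0.000320) on the log2 scale. Foxa2, a pioneer factor of hepatocytes, fell in both as well, by 0.86 (adjusted p = 0.0236) and 1.14 (adjusted p = 0.00470). Ppargc1a, a coactivator of fasting metabolism, rose in both, by 0.66 (adjusted p = 0.0397) and 0.63 (adjusted p = 0.0321).

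Gcgr, the glucagon receptor whose signal induces the cycle enzymes during fasting and protein feeding, was 281.3 to 353.4 CPM in controls. It was 119.8, 44.0 and 183.6 CPM in Tfam KO livers and 159.7 to 197.1 CPM in Mfn DKO livers, below every control in both. Gcgr fell in Tfam KO livers (log2 fold change -1.48, adjusted p = 0.00580 by edgeR), and so did Prox1, a homeobox factor of hepatocytes (-0.96, adjusted p = 0.0165, or 0.0772 without Tfam KO replicate 2). The Mfn DKO value of Gcgr was -0.80 (adjusted p = 0.0822), and without Tfam KO replicate 2 it passed there (adjusted p = 0.00168). The fifth regulator called lower in Tfam KO, Cebpa (-1.25, adjusted p = 0.0386), was named after its value was seen.

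**Figure D4:**
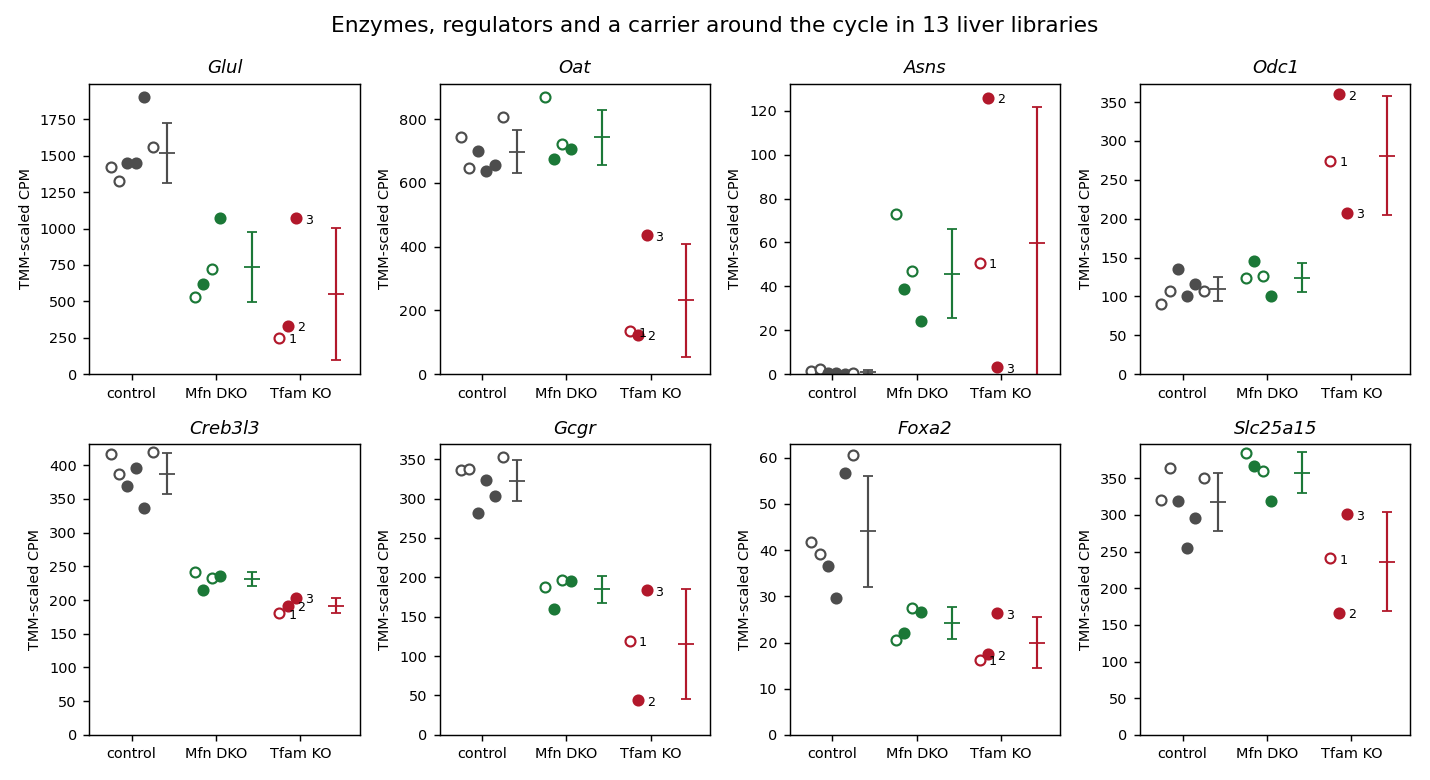
TMM-scaled CPM (linear axes from 0) in each of the 13 livers for enzymes, regulators and a carrier around the cycle, marked as in the plot of the 7 genes. Asns is above every control in each knockout liver, and Glul, Creb3l3, Gcgr and Foxa2 lie below every control in both knockouts, whereas Oat and Odc1 lie outside the control range in every Tfam KO liver and overlap with it in Mfn DKO livers.

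Cycle enzymes sit mainly in periportal hepatocytes, and Glul and Oat in pericentral ones, so other genes of the 2 zones were counted. Of 12 periportal genes, 2 were called higher and none lower in Tfam KO livers (Aldh1b1 and Cdh1), and 1 was called higher in Mfn DKO livers (Aldh1b1, log2 fold change 1.67, adjusted p = 0.000545 by edgeR). Of 12 pericentral genes, 6 were called lower in Tfam KO and 1 in Mfn DKO livers, and none higher. Over all genes, 11.3% were called lower in Tfam KO livers. In Mfn DKO livers 9.87% of 17024 genes were called in either direction, 891 higher and 790 lower. Cyp27a1, a sterol hydroxylase of bile acid synthesis, fell in both, by 1.59 (adjusted p = 0.00287) and 1.32 (adjusted p = 0.00924) on the log2 scale. The medians were -0.66 (periportal) and -1.27 (pericentral) in Tfam KO, and 0.04 and -0.56 in Mfn DKO livers. Over all genes the medians were 0.03 in Tfam KO and 0.02 in Mfn DKO livers. Once Tfam KO replicate 2 was left out, the periportal calls were 2 higher and 1 lower in Tfam KO and 3 higher and 2 lower in Mfn DKO livers. The pericentral calls were then 3 lower in Tfam KO and 4 lower in Mfn DKO livers, and none higher. Beside them, 5.95% of all genes were called lower in Tfam KO and 9.95% in Mfn DKO livers. Cdh1 was 39.3, 95.4 and 31.5 CPM in Tfam KO replicates 1 to 3. It was not called in Tfam KO livers without replicate 2 (adjusted p = 0.408 by edgeR).

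Markers of other liver cells were examined beside these results. Of 8 Kupffer cell and macrophage markers, 1 was called in each knockout (Marco, higher in both). Of 7 stellate cell and fibroblast markers, Col1a1 was called higher in both and Col1a2 in Mfn DKO livers. Summed Kupffer markers were 444.6 to 821.8 CPM in controls, 586.6 to 1348 CPM in Mfn DKO and 289.2 to 838.2 CPM in Tfam KO livers. Summed stellate markers were 210.3 to 289.7, 289.3 to 342.2 and 217.6 to 274.8 CPM in the same groups. Counts without Tfam KO replicate 2 were 0 Kupffer and 1 stellate markers in Tfam KO livers, and 1 and 4 in Mfn DKO livers.

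Of 6 markers each of bile duct epithelium, sinusoidal endothelium and other leukocytes, none was called in Mfn DKO livers, and 1 bile duct marker was called higher there without Tfam KO replicate 2. In Tfam KO livers the bile duct marker Cldn4 (log2 fold change 4.87, adjusted p = 0.00950 by edgeR) and the endothelial marker Lyve1 (1.91, adjusted p = 0.0115) were called higher, and no leukocyte marker was called. Both calls were lost without Tfam KO replicate 2, at 0.44 (adjusted p = 0.804) and 0.55 (adjusted p = 0.266). Summed bile duct markers were 33.2 to 69.4 CPM in controls, 55.0 to 104.0 in Mfn DKO and 27.3 to 138.1 in Tfam KO livers. Endothelial sums were 255.3 to 298.4, 256.0 to 373.9 and 256.0 to 311.1 CPM, and leukocyte sums 13.7 to 32.5, 20.7 to 41.3 and 19.6 to 34.7 CPM, in the same order of groups. Each of the 6 markers of these 3 lists had counts in every group. The part of any of these cell markers in the values of the 7 genes was not tested.

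For each of the 4 genes called in Tfam KO livers, the 3 transcripts with the nearest profile were sought among 9857 genes, by the root-mean-square difference over the 13 livers in log2 CPM relative to the control mean. Nags was nearest to Aldh4a1 (0.13), a mitochondrial enzyme of proline breakdown, then Parp14 (0.15) and Proser2 (0.16). Otc was nearest to Serpina1d (0.19), a member of a family of near-identical genes and so uncertain, then Car5a (0.21), the mitochondrial carbonic anhydrase that supplies bicarbonate to CPS1, and the complement gene C8g (0.21). Asl was nearest to Dcxr (0.14), Masp2 (0.16) and Lsm6 (0.20), and Arg1 to Fah (0.15), the last enzyme of tyrosine breakdown, Aqp11 (0.17) and Isoc2a (0.18). Tfam KO replicate 2 alone gave between 49.96% (Asl) and 79.6% (Nags) of the squared deviations behind these profiles. Without it Aldh4a1 stayed the nearest to Nags, and Dcxr and Masp2 ranked 2 and 3 for Asl. The other nearest transcripts then ranked between 4 (C8g for Otc) and 31 (Car5a for Otc). Among the 7, Cps1 and Ass1 had the closest pair of profiles beside Nags and Arg1 (both 0.25), and Otc and Ass1 the farthest (1.40).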

How the data were processed

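Per the file headers, the authors deposited raw counts and TPM for 55487 genes in each library. The submitters' processing notes name STAR 2.6.1b, RSEM 1.3.1, featureCounts, DESeq2, FastQC, MultiQC and GRCm38, without assigning roles. The deposited counts of the 13 livers were fitted in R 4.3.3 with edgeR 4.0.16, using 1 mean per group, TMM scaling, the filterByExpr filter and a quasi-likelihood F-test with 10 residual degrees of freedom. Standard errors are absolute log2 fold changes divided by the root of F. Log2 CPM for profiles used a prior count of 2 and genes of at least 5 CPM on average. The authors' TPM were used to compare levels between genes. The procedure was tested on simulated data. Alternatives were other scalings and filters, DESeq2 1.42.0, Xist as a covariate, the replicate number as a block, fits of 2 groups, and each library left out. The 7 genes and the lists of surrounding genes and markers were chosen with earlier results of these data known. From each list, at most the 4 called genes with the smallest adjusted p per comparison are named, besides Arg2, Slc25a15, Slc25a13, Glul, Oat and Glud1, and the 3 nearest profiles of each called member. Not every gene that this rule admits is printed, and 1 gene is not reported here.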

Additional observations from a re-analysis of the deposited data

Results flagged for a closer look

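Among the 14 groups of 4 or 6 livers examined for the 7 genes, 1 held a liver that stood far from the others relative to the group's range. Nags in control replicate 1 was 71.4 CPM, while the other 5 controls lay between 58.6 and 63.1 CPM. Chance alone marks about 1 in 20 such groups. That liver is the highest control, and the groups of 3 Tfam KO livers were not examined in this way.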

How the results depend on the processing

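Of 462 values of the 7 genes under 22 alternatives, 428 kept their direction and side of the threshold, 9 were no longer called, 22 became called and 3 changed sign. The sign changes were Nags in Mfn DKO livers under total counts alone (0.17), and Asl between the knockouts without Tfam KO replicate 2 (0.10; from -0.71 to 0.10 over the livers left out), also with Xist as a covariate (0.10), an alternative chosen after seeing the data. Total counts alone moved the median of all genes by 0.19 (Mfn DKO), 0.43 (Tfam KO) and 0.24 (between knockouts), and the split of calls from 891 higher and 790 lower to 1653 and 356, from 3073 and 1919 to 7250 and 904, and from 18 and 32 to 1140 and 86. In Mfn DKO livers, 1 of the 7 genes was called under total counts alone (Ass1, higher) and 1 with DESeq2 (Asl; 2870 genes in all). Fitting only those 2 groups called 2 (Otc and Asl; 4338 genes), and Xist without Tfam KO replicate 2 called 3 (Asl, Ass1 and Otc; 4589 genes). In Tfam KO livers, fitting only those 2 groups called 2 (Nags and Arg1; 3228 genes), and total counts alone called 8154 genes. Between the knockouts, total counts alone called 1 (Nags; 1226 genes), DESeq2 called 3 (1087 genes), a minimum of 10 counts 27 genes, fitting only those 2 groups 7 genes, and Xist without Tfam KO replicate 2 79 genes.

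Leaving out 1 liver at a time gave 0 to 2 of the 7 genes and 686 to 3379 genes in Mfn DKO, 1 to 5 and 2504 to 7330 in Tfam KO, and 0 to 6 and 24 to 4204 between the knockouts. Where a group kept 2 livers, its spread was assumed to match the others. Correlations of same-numbered livers ran from -0.63 to 0.68. They were positive where both livers had high Xist or both low Xist, and negative where the livers differed in it. Livers with different numbers were not compared, so these values cannot settle whether replicate numbers pair the livers. With the replicate number as a block, 11 livers and 5 residual degrees of freedom, 0 of the 7 genes were called in each comparison, and 174 genes in Mfn DKO, 371 in Tfam KO and 6 between the knockouts. The causes were not tested.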
